A study of Brassica napus with 112 samples.

Results

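The high-numbered ends of chromosomes A05 and C05 of rapeseed (Brassica napus) held 1785 expressed genes, out of 60177 expressed genes and 101040 genes listed in the whole data set. They were taken by their identifiers, with numbers from 25000 upwards on A05 (BnaA05g25000D and later) and from 38000 upwards on C05 (BnaC05g38000D and later). A gene was kept when its value reached at least 1 in at least 47% of the 56 silique or of the 56 seed libraries, and 2 genes, BnaA05g26900D and BnaC05g40970D, were left out by the rule. Of 2676 listed genes in these ranges, 893 on A05 and 892 on C05 passed, whereas 418 were at 0 in every library. In siliques 1630 members were tested (817 on A05 and 813 on C05), in seeds 1637 (819 and 818), and 1482 were tested in both tissues. The ranges were chosen by the measured difference between the hybrids Lumen and Solar in these same libraries, so every difference between the hybrids below is a description without a test.

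Rapeseed is an allotetraploid that carries the A subgenome of Brassica rapa and the C subgenome of Brassica oleracea. Chromosomes A05 and C05 are homoeologous over much of their length, so many genes on one have a close counterpart on the other, and exchanges between homoeologous chromosomes, which replace a piece of one by a copy of the other, are well known in rapeseed cultivars. A hybrid carries a chromosome set from each parent line, so a piece can differ between its parental copies. Because the homoeologous copies are close in sequence, reads of one can be assigned to the other when transcripts are quantified.

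RNA was measured in siliques and in seeds of Lumen and Solar, hybrids of spring type, grown in field plots in Chile in 2 seasons. Heat plots stood under transparent film in chambers aimed at 5 degrees C above the open Control plots from the start of flowering until after the second sampling, so warming, shading and enclosure cannot be told apart. Samples were taken at 7 and 14 days after flowering (DAF). The 16 conditions of a tissue combine hybrid, treatment, time and season, with 4 libraries for each condition of season 2 and 3 for each of season 1. Each library pooled 5 plants of a plot, and the replicates are described as coming from separate plots. In season 1 the treatments were laid on main plots with the hybrids as sub-plots, and in season 2 both were randomized in blocks. The field protocol names 3 replicates in both seasons, and the plot of the fourth library of season 2 is not given in the sources used here. Per tissue this gave 28 Lumen and 28 Solar libraries, 28 Heat and 28 Control libraries, 28 libraries of 14 DAF and 28 of 7 DAF, and 32 libraries of season 2 and 24 of season 1. Both genotypes are commercial hybrids and are 2 genetic backgrounds only, so a difference between them is a difference between these hybrids.

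The deposited values were whole numbers in a normalized, transcripts-per-million-like unit, and their sums ranged from 909005 to 1245569 per silique library and from 890194 to 1658548 per seed library. INO (BnaC05g18750D), a gene of the ovule's outer integument in Arabidopsis, had 8 to 51 in seeds, while it was at 0 in 41 of 56 silique libraries and reached 2 at most, so the tissues matched their labels for this gene. ABI4 (BnaA03g18970D), known in Arabidopsis from seeds, did not separate them, with 1 to 16 in seeds and 1 to 11 in siliques. Among seed libraries 2 stood apart from the rest, namely Solar Control 14 DAF season 1 replicate 1, where 10 genes held 33.5% of the sum, and Lumen Heat 7 DAF season 2 replicate 4, where 66990 genes were at 0. In bulk tissue, fewer cells of a type and less RNA per cell cannot be told apart.

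Taken over the whole ends, A05 genes were more often higher in Lumen and C05 genes more often higher in Solar. In siliques the median difference, Lumen minus Solar on the log2(value + 0.5) scale, was 0.17 for the A05 members and -0.28 for the C05 members, beside -0.01 for all 54752 genes tested. In seeds it was 0.11 on A05 and -0.36 on C05, beside -0.04 for all 53350 genes tested. With a pseudocount of 5 in place of 0.5 the medians were 0.084 on A05 and -0.127 on C05 in siliques, and 0.057 and -0.157 in seeds. With a limma q-value under 0.01 as the call, 297 A05 members were higher in Lumen in siliques, against 98 in Solar, and on C05 78 were higher in Lumen, against 363 in Solar. Over all genes tested in siliques, 17.9% were called higher in Lumen, against 18.9% in Solar. In seeds 262 A05 members were higher in Lumen, against 112 in Solar, and on C05 59 were higher in Lumen, against 396 in Solar, where all genes gave 16.9% and 20%. Without 1 of the replicate numbers there were 63 to 94 A05 members higher in Solar and 45 to 83 C05 members higher in Lumen in siliques, and 69 to 105 A05 members higher in Solar in seeds. This contrast chose the ranges, so nothing further is read from these counts.

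The differences on C05 were larger than those on A05. The median size among called members was 0.92 in siliques and 0.99 in seeds for C05 genes higher in Solar, and 0.69 and 0.66 for A05 genes higher in Lumen. Of the 363 C05 genes higher in Solar in siliques, 280 (77.1%) had a size between 0.5 and 1.5. A difference of at least 1 in favour of Solar was seen for 144 C05 members in siliques and 194 in seeds, where all genes gave 4.71% and 5.05%. In favour of Lumen it was seen for 61 A05 members in siliques and 54 in seeds, where all genes gave 4.03% and 3.93%. Lumen and Solar libraries did not overlap, with Solar above, for 31 C05 members in siliques and 49 in seeds, beside 0.67% and 1.12% of all genes. Lumen lay above Solar without overlap for 17 A05 members in siliques and 20 in seeds, beside 0.725% and 0.909% of all genes. The same sign in all 8 combinations of time, treatment and season was found in siliques for 268 C05 members higher in Solar and for 191 A05 members higher in Lumen, where all genes gave 10.5% and 9.89%.

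The calls were then compared between the tissues. On A05 266 of 743 members tested in both tissues were called in both, which is 72.3% of the silique calls and 75.1% of the seed calls, and 263 of them had the same sign. On C05 336 of 739 were called in both, 82.2% of the silique calls and 80.6% of the seed calls, and 334 had the same sign. Over all 47923 genes tested in both tissues, 12006 were called in both, 67.2% of the silique calls and 65.7% of the seed calls, and 96.3% of them had the same sign. Across genes, which are not independent replicates, the differences in siliques and in seeds correlated with r = 0.879 on A05 and 0.913 on C05, beside 0.839 over all genes. Both tissues were quantified against the same transcripts, and the correlation is given without a test.

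**Figure D1:**
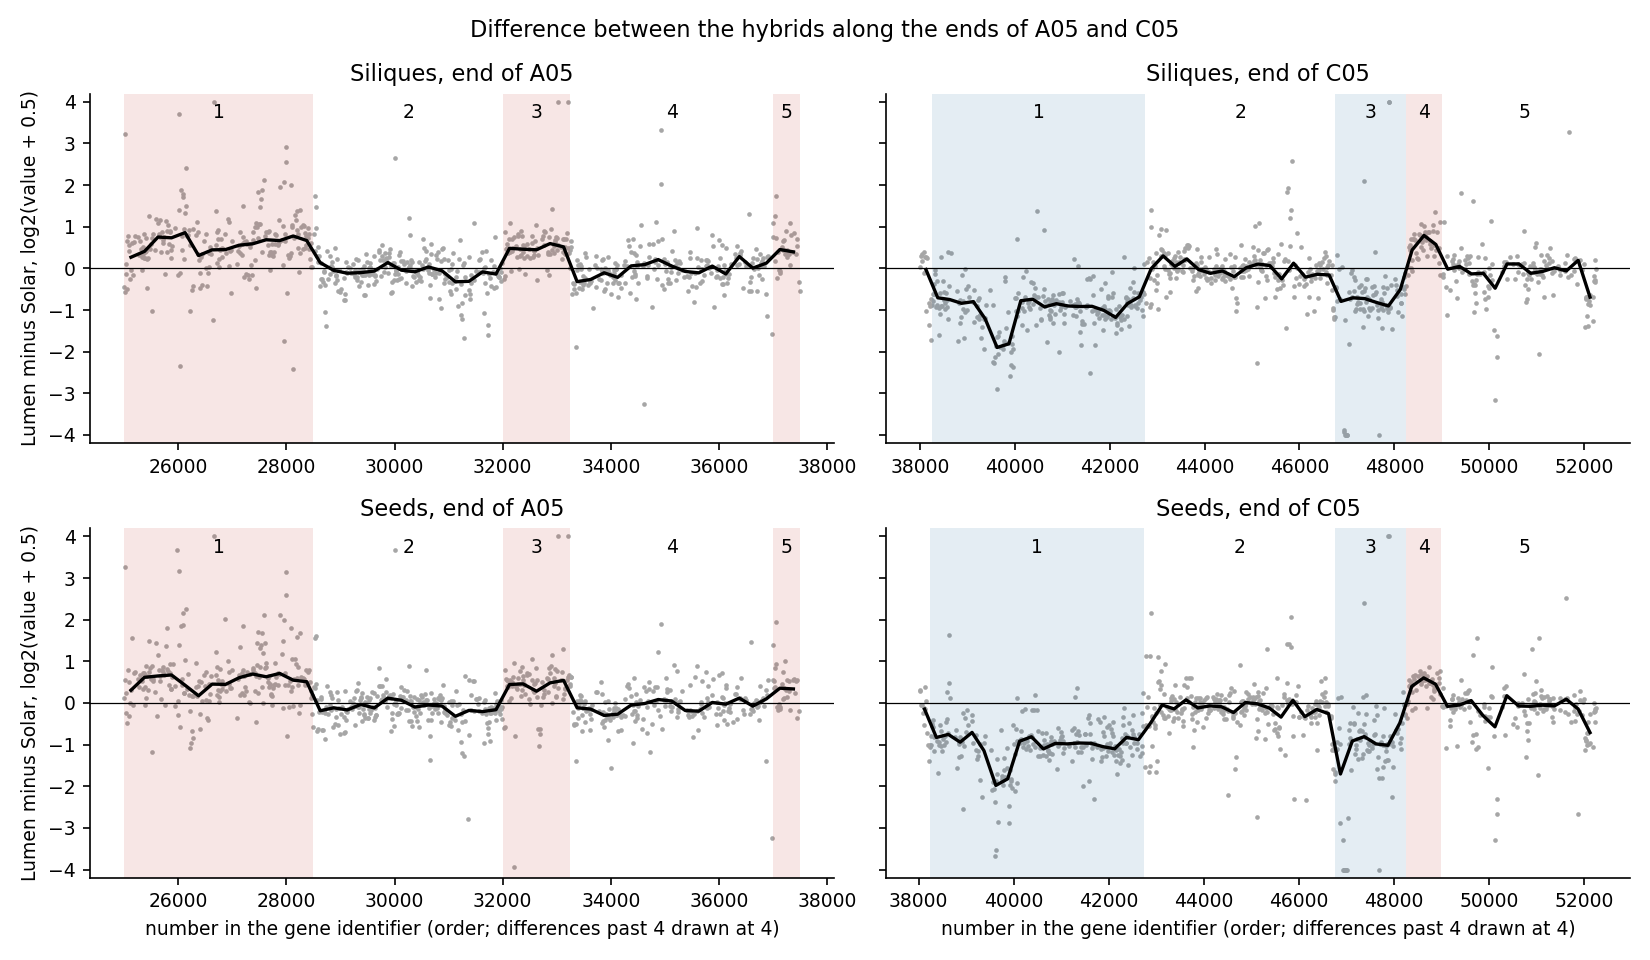
Each point is a member, placed by the number in its identifier (x) with its Lumen minus Solar difference in log2 units (y), in siliques (top) and seeds (bottom), and the line is the median of bins of 250 numbers. Shading marks the numbered stretches in which Lumen (red) or Solar (blue) was higher in both tissues; the members of C05 between 39250 and 39999 are lowest, with medians of -1.70 in siliques and -1.83 in seeds.

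Along the gene order the difference came in blocks and not as an even shift. The files hold no coordinates, so the number in the identifier stands for the order, and whether the highest numbers lie on placed parts of the chromosomes is not given in the sources used here. Bins of 250 numbers were joined into stretches where the median difference passed 0.25 in the same direction in both tissues. A single bin between bins of one kind was given their kind, and single bins at the start or end of a range were left out unless they were of the same kind as the next. These stretches were drawn after the values were seen. Each end fell into 5 stretches, and the plot of differences along the gene order shows how sharply the median line steps at their borders.

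On A05, stretch 1 (25000 to 28499) was higher in Lumen, with a median difference of 0.58 in siliques and 0.54 in seeds. The seed median corresponds to 1.45 times the Solar value. Of its 234 members tested in siliques, 160 were called higher in Lumen, against 16 in Solar. Stretch 2 (28500 to 31999) lay near 0, at -0.07 in siliques and -0.10 in seeds. Stretch 3 (32000 to 33249) was again higher in Lumen, at 0.50 and 0.46, and none of its 81 members tested in siliques was called higher in Solar. Stretch 4 (33250 to 36999) lay near 0, at -0.01 and -0.08, and the short stretch 5 (37000 to 37499) was higher in Lumen, at 0.44 and 0.35.

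On C05, stretch 1 (38250 to 42749) was higher in Solar, with a median difference of -0.91 in siliques and -0.97 in seeds, and Lumen had 0.532 and 0.510 times the Solar value. Of 249 members tested in siliques, 3 were called higher in Lumen, against 212 in Solar, and of 247 tested in seeds 2 and 214. Inside it, the members from 39250 to 39999 went lowest, at -1.70 and -1.83, with Lumen at 0.307 and 0.282 times Solar, and 33 of 36 in siliques and 35 of 36 in seeds were called higher in Solar. Stretch 2 (42750 to 46749) lay near 0, at -0.02 and -0.11. Stretch 3 (46750 to 48249) was higher in Solar, at -0.73 and -0.96. Stretch 4 (48250 to 48999) ran the other way, at 0.64 and 0.47, with none of its 47 members called higher in Solar in either tissue, and stretch 5 (49000 to 52499) lay near 0 as a whole, at -0.09 and -0.12.

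Some single bins went against their stretch. Near the end of C05 stretch 5, the bin from 52000 to 52249 had medians of -0.69 in siliques and -0.71 in seeds, with 13 of 19 and 12 of 18 members called higher in Solar and 0 in Lumen. The bin from 50000 to 50249 in the same stretch had -0.48 and -0.57. Medians past -0.25 in both tissues were also found for the bin from 45500 to 45749 in C05 stretch 2, at -0.25 and -0.34, and for the bin from 31000 to 31249 in A05 stretch 2, at -0.32 and -0.32. In A05 stretch 1 the bin from 26250 to 26499 had 0.31 in siliques and 0.17 in seeds.

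The order of the stretches showed a partial likeness between the chromosomes. A05 had a stretch higher in Lumen, one near 0 and one higher in Lumen, and C05 had a stretch higher in Solar, one near 0 and one higher in Solar. Which A05 gene is the counterpart of which C05 gene is not given in the sources used here, so single pairs were not compared. Inside the ends, bins of 1000 numbers had medians from -0.20 to 0.60 on A05 and from -1.43 to 0.48 on C05 in siliques. Outside the ends they ran from -0.08 to 0.41 on A05 and from -0.36 to 0.08 on C05. In seeds the bins inside the ends ran from -0.18 to 0.66 on A05 and from -1.61 to 0.41 on C05, and those outside from -0.10 to 0.49 and from -0.38 to 0.11.

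The limit on A05 did not coincide with a step in the data, and on C05 a step lay a little inside the limit. The C05 bin from 37000 to 37999 had medians of -0.03 in siliques and -0.09 in seeds. The bin from 38000 to 38249 had -0.03 and -0.15, and the bin from 38250 to 38499 had -0.71 and -0.83. In siliques the 10 tested A05 genes just inside the limit of 25000 had a median difference of 0.27 and the 10 just outside 0.41, and the 10 C05 genes just inside the limit of 38000 had 0.23 and the 10 just outside 0.02. In seeds these medians were 0.17 inside and 0.45 outside on A05, and -0.05 inside and -0.45 outside on C05. At the expression limit, 15 genes reached the value of 1 in exactly 27 libraries of their better tissue and passed, with a median level of 1.12, and 13 genes reached it in 26 libraries and did not, with a median level of 0.857.

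A score for each library and stretch was then computed as the median over its members, with a mean of at least 3, of the log2 value minus the mean of the Solar libraries of the same time, treatment and season. Solar scores therefore centre on 0, and a Lumen score gives the distance of that library from Solar. A Solar library is part of the mean subtracted from it and a Lumen library is not. This narrows the Solar ranges, so Lumen libraries fall outside them more readily. A library is a pool of plants of a plot, and the spread of the Lumen scores holds differences between such pools together with those from the measurement of each library. Their parts were not tested.

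**Figure D2:**
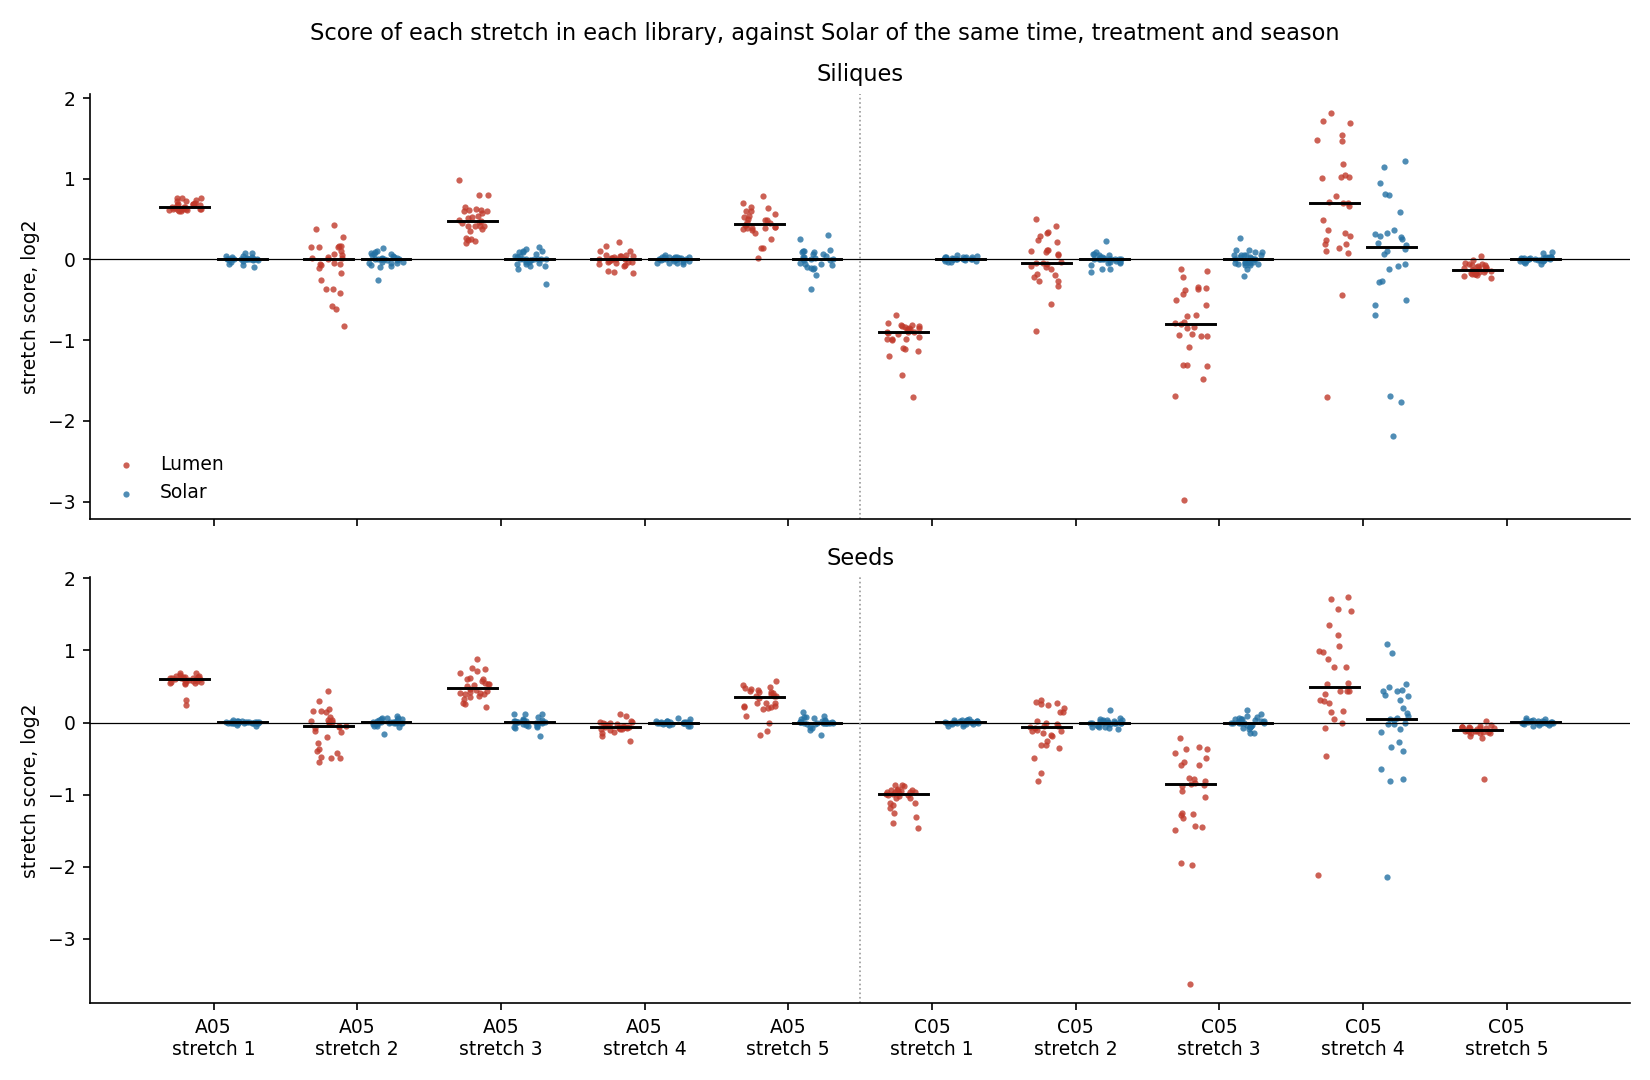
Each point is a library, Lumen in red at the left and Solar in blue at the right of each stretch, with the stretch score in log2 units on the y axis and the median as a bar. Lumen libraries lie close together in A05 stretch 1, from 0.60 to 0.77 in siliques, and far apart in C05 stretch 3, from -2.98 to -0.12.

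In A05 stretch 1 the Lumen silique libraries had nearly the same distance from Solar. The scores of the 28 Lumen silique libraries ran from 0.60 over a median of 0.65 to 0.77, and all lay above the 28 Solar libraries, which ran from -0.09 to 0.08. The standard deviation within conditions was 0.0537 in Lumen and 0.0427 in Solar. In seeds the Lumen scores ran from 0.25 over 0.60 to 0.69, again all above Solar, at -0.05 to 0.03. The Lumen seed libraries of 7 DAF, season 2, replicate 4 made up the low tail. Without these and the Solar seed library that stood apart, the lowest Lumen score was 0.54 and the standard deviation 0.0416 in place of 0.0949.

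C05 stretch 1 also separated the hybrids in every library, with more spread in Lumen. In siliques the Lumen scores ran from -1.70 over -0.90 to -0.68, and the Solar scores from -0.03 to 0.05. The standard deviation within conditions was 0.218 in Lumen and 0.0206 in Solar. In seeds the Lumen scores ran from -1.46 over -0.99 to -0.86, with standard deviations of 0.168 in Lumen and 0.0252 in Solar. The Lumen library nearest to Solar was still far below the lowest Solar library in both tissues.

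The lowest part of C05, 39250 to 39999, varied most among Lumen libraries. In siliques the Lumen scores ran from -3.63 over -1.43 to -0.82 and the Solar scores from -0.07 to 0.09, and the standard deviations were 0.761 in Lumen and 0.0421 in Solar. In seeds the Lumen scores ran from -3.97 over -1.61 to -1.04. The library of Lumen Heat 7 DAF season 1 replicate 3 had the lowest silique score, -3.63, and its seed counterpart had -2.76. The library of Lumen Heat 14 DAF season 2 replicate 3 had -3.41 in siliques and -3.97 in seeds, the lowest seed score.

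C05 stretch 3 was lower in every Lumen library than the Solar mean, by widely different amounts. The Lumen silique scores ran from -2.98 over -0.79 to -0.12, with a standard deviation of 0.521, and the Solar scores had one of 0.103. In seeds the Lumen scores ran from -3.62 over -0.86 to -0.22. The library of Lumen Heat 7 DAF season 1 replicate 1 was lowest in both tissues, at -2.98 in siliques and -3.62 in seeds. Of the 28 Lumen silique libraries, 26 lay below all Solar libraries, and in seeds all 28 did.

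In C05 stretch 4 Solar varied more widely than Lumen. In siliques the Lumen scores ran from -1.70 over 0.70 to 1.82, and the Solar scores from -2.19 over 0.15 to 1.22. The standard deviations within conditions were 0.4598 in Lumen and 0.949 in Solar in siliques, and 0.539 and 0.717 in seeds. In A05 stretch 5 they were also larger in Solar in siliques, 0.132 in Lumen and 0.148 in Solar, though not in seeds, 0.128 and 0.0689. In C05 stretch 4 the Lumen seed scores ran from -2.11 over 0.49 to 1.75 and the Solar seed scores from -2.14 over 0.06 to 1.10. The range was wider in Solar in season 2 only. Silique scores then ran from 0.08 to 1.82 in Lumen and from -2.19 to 1.22 in Solar. In season 1 they ran from -1.70 to 0.79 in Lumen and from -0.57 to 0.33 in Solar, and seed scores from -2.11 to 1.22 and from -0.39 to 0.44. The lowest Lumen library in both tissues was again Lumen Heat 7 DAF season 1 replicate 1, and the lowest Solar library in both was Solar Control 14 DAF season 2 replicate 4, at -2.19 in siliques and -2.14 in seeds. Only 6 of 28 Lumen libraries in each tissue lay above all Solar libraries, so the median difference of this stretch covers overlapping hybrids.

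The stretches near 0 were not alike in all Lumen libraries either. In A05 stretch 2 the Lumen silique scores ran from -0.83 over 0.01 to 0.43, with a standard deviation of 0.253, and the Solar scores had one of 0.0875. In C05 stretch 2 they ran from -0.88 over -0.04 to 0.50, with 0.279 in Lumen and 0.0831 in Solar. In siliques 8 Lumen libraries lay above and 6 below all Solar libraries in A05 stretch 2, and 6 above and 8 below in C05 stretch 2. In these 2 stretches a median difference near 0 thus averaged libraries of both signs. C05 stretch 5 was different, with 27 of 28 Lumen libraries below 0 in each tissue and 23 in siliques and 25 in seeds below all Solar libraries. In A05 stretch 4, 16 Lumen silique libraries lay above and 12 below 0, and 5 seed libraries above and 23 below.

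**Figure D3:**
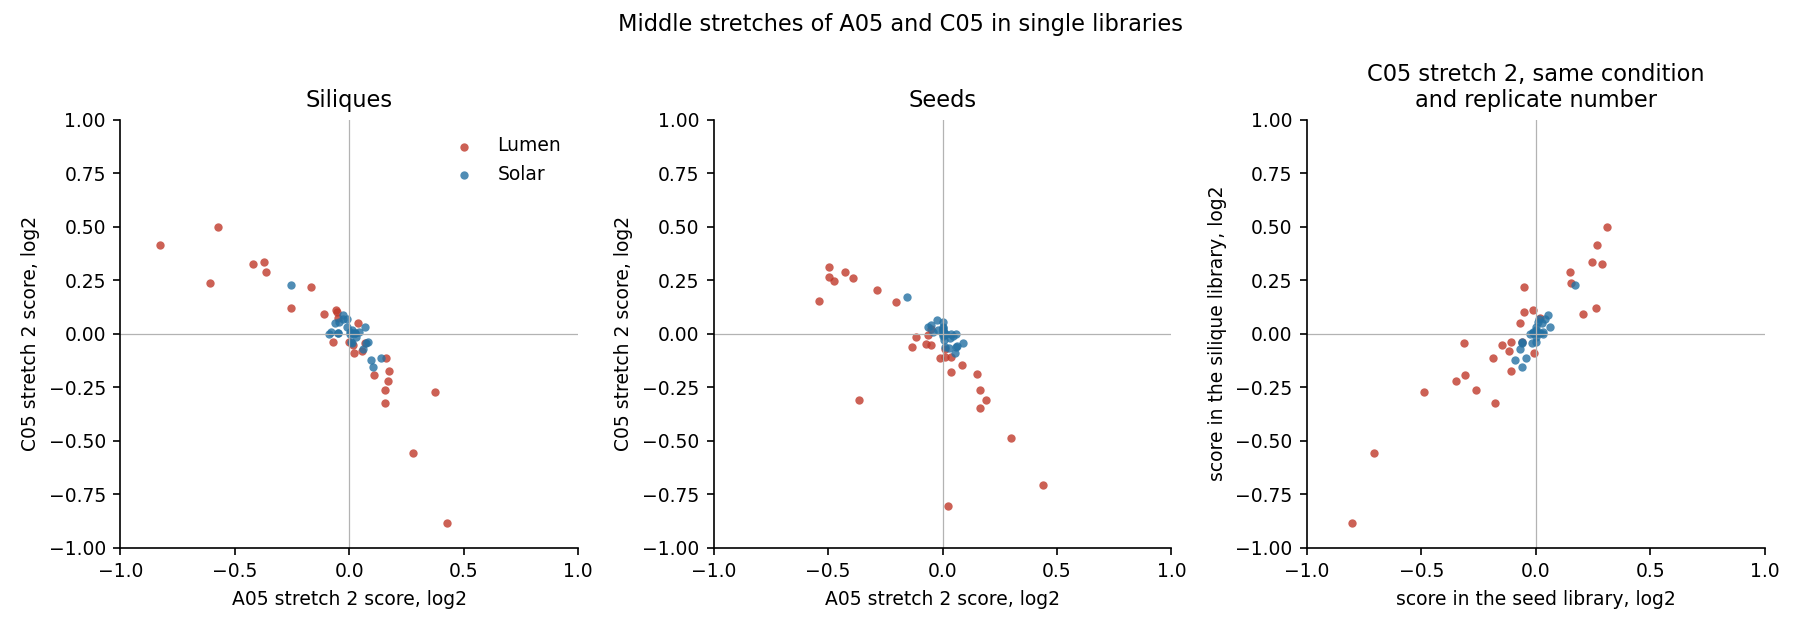
Each point is a library, Lumen in red and Solar in blue. The left and middle panels set the score of A05 stretch 2 (x, log2) against that of C05 stretch 2 (y, log2) in siliques and seeds, where they run in opposite directions (r = -0.88 and -0.80 over 28 Lumen libraries), and the right panel sets the C05 stretch 2 score of the seed library (x) against the silique library (y) of the same condition and replicate number (r = 0.92 in Lumen).

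The 2 middle stretches moved against each other from library to library. Over the 28 Lumen silique libraries the scores of A05 stretch 2 and C05 stretch 2 correlated with r = -0.88 (rho = -0.96), and after centring on the conditions with -0.84. Without the 2 libraries farthest from the median on A05 the r was -0.92, and within the seasons it was -0.89 in season 2 and -0.88 in season 1. In the Lumen seed libraries r was -0.80 and, centred, -0.63. Solar showed the same direction over its narrower range, with -0.82 in siliques and -0.83 in seeds, and -0.65 and -0.68 without the 2 libraries farthest from the median. The values of a library share its scaling and its conditions, and the correlations are descriptions without a test.

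Opposite movement was not particular to this pair. Of the 25 pairs of an A05 and a C05 stretch, 11 in Lumen siliques, 6 in Lumen seeds, 7 in Solar siliques and 4 in Solar seeds had r of -0.5 or below. In Solar siliques A05 stretch 3 and C05 stretch 2 had -0.84, below the -0.82 of both stretches 2, and in the other 3 sets both stretches 2 had the lowest r. A05 stretch 2 had -0.71 in Lumen siliques and -0.60 in Lumen seeds with C05 stretch 3, and -0.62 and -0.68 with C05 stretch 4. Stretch 3 of A05 and stretch 3 of C05 had r = -0.80 in Lumen siliques and -0.64 in Lumen seeds. Stretch 4 of both chromosomes had -0.86 in Lumen siliques and -0.46 in Lumen seeds. In Lumen seeds these relations were weaker in season 2. For stretch 3 of both, r was -0.30 in season 2 and -0.81 in season 1, and for stretch 4 of both it was -0.06 and -0.93. Stretch 1 of both had -0.46 in Lumen siliques and 0.02 in Lumen seeds, where r was -0.50 without the 2 libraries farthest from the median on A05, 0.24 in season 2 and -0.56 in season 1. Stretch 5 of both had -0.01 in Lumen siliques and 0.48 in Lumen seeds, where r was -0.0038 without the 2 farthest libraries. The numbers of the stretches count blocks along each end and do not state that the blocks correspond.

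The library scores of several stretches recurred between tissues. A seed and a silique library with the same condition and replicate number were set side by side, although the labels do not state that they came from the same plants. Over the 28 Lumen pairs r was 0.92 for C05 stretch 2, 0.91 for C05 stretch 3, 0.88 for C05 stretch 4, 0.86 for A05 stretch 2 and 0.85 for the lowest part of C05. It was 0.68 for A05 stretch 3, 0.54 for C05 stretch 1, 0.51 for A05 stretch 4, 0.36 for A05 stretch 5 and 0.06 for C05 stretch 5. For A05 stretch 1 it was 0.01 (rho = 0.41), and 0.59 without the 2 libraries farthest from the median. In Solar it was highest for C05 stretch 2, at 0.89, and lowest for A05 stretch 1, at 0.02, and the lowest part of C05 had 0.23. For example, Lumen Control 7 DAF season 2 replicate 4 had -0.88 in siliques and -0.81 in seeds for C05 stretch 2.

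The spread of single genes also differed between the stretches. In C05 stretch 1, 90.9% of the genes with a mean of at least 3 had a larger standard deviation within conditions in Lumen than in Solar in siliques, and 91.8% in seeds, beside 57% and 71.1% of all such genes. In C05 stretch 2 it was 90.1% and 93.4%. In the lowest part of C05 it was 100% of 22 genes in siliques and 96.8% of 31 genes in seeds. C05 stretch 4 went the other way over both seasons together, at 14.8% and 35.7%, with median standard deviations in siliques of 0.587 in Lumen and 1.11 in Solar. In A05 stretch 5 it was 40% in siliques and 73.1% in seeds. A05 stretch 1, at 46.6% and 62.5%, lay below all genes in both tissues. The part that pooling of plants has in these spreads was not tested.

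**Figure D4:**
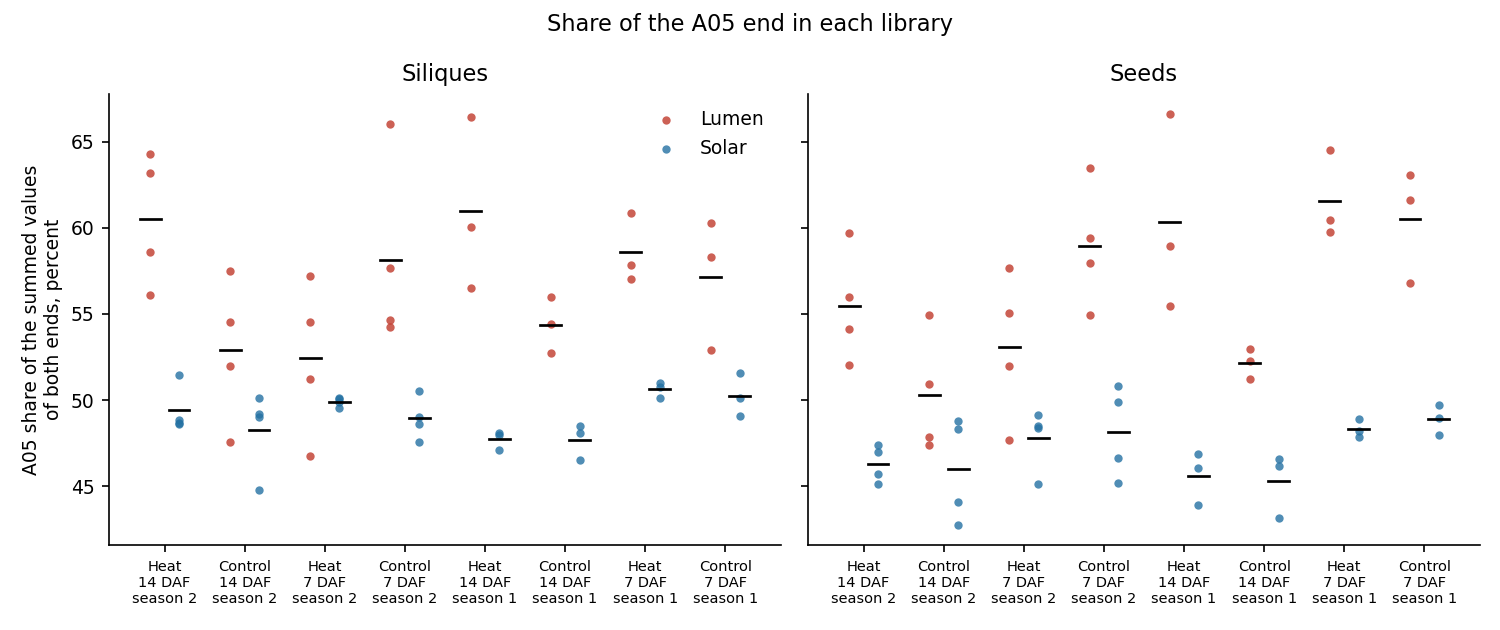
Each point is a library, Lumen in red left of Solar in blue, in each combination of treatment, time and season, with the A05 share of the summed values of both ends in percent on the y axis and the mean as a bar. Of the 28 Lumen libraries, 25 lie above every Solar library in siliques and 25 in seeds.

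Summed over both ends, the values shifted towards A05 in Lumen. The A05 members held 46.8% to 66.5% (median 56.8%) of the sum in the 28 Lumen silique libraries and 44.8% to 51.6% (median 49.0%) in the 28 Solar libraries. In seeds the share was 47.4% to 66.6% (median 55.7%) in Lumen and 42.8% to 50.8% (median 47.2%) in Solar. In each tissue 25 of 28 Lumen libraries lay above every Solar library, and the others overlapped with them. The sum over both ends was 28924 ± 1295 in Lumen and 30252 ± 2046 in Solar in siliques (SD, n = 28 each), and 30685 ± 1935 and 34663 ± 2272 in seeds. The difference of these sums was not tested.

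Named genes were taken by rank among members with the same sign in all 8 combinations in both tissues and a mean of at least 20 in at least 1 hybrid in both tissues. No sequence of them was used here, and the sources name the function of few. On A05, BnaA05g33020D and BnaA05g33200D were the highest in Lumen relative to Solar. BnaA05g33020D had 0 to 123 (median 51) in Lumen siliques and 0 to 2 (median 0.5) in Solar siliques, and 24 to 159 (median 83) against 0 to 4 (median 1) in seeds. The Solar value was 0 in 14 of 28 silique and 12 of 28 seed libraries, so no fold is given for this gene. The Lumen and Solar seed libraries did not overlap, and a single Lumen silique library, Heat 7 DAF season 2 replicate 1, was at 0.

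BnaA05g33200D is annotated with the glycolytic process, the breakdown of sugars to pyruvate. It had 4 to 67 (median 33.5) in Lumen siliques and 0 to 4 (median 1) in Solar siliques, a difference of 4.01 ± 0.20 (SE). In seeds it had 39 to 204 (median 86.5) in Lumen and 2 to 5 (median 3) in Solar, a difference of 4.52 ± 0.10. Both genes lie in A05 stretch 3, whose median difference was 0.50 in siliques, so they stood far above the level of their stretch.

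The A05 genes that were highest in Solar lay in stretch 2 and differed much less. BnaA05g31280D had 0 to 38 (median 11) in Lumen siliques and 15 to 56 (median 27) in Solar siliques, a difference of -1.67 ± 0.25 (SE), and 0 to 36 (median 14.5) against 16 to 45 (median 29.5) in seeds, a difference of -1.28 ± 0.19. BnaA05g31170D had 2 to 21 (median 12.5) in Lumen siliques and 15 to 34 (median 21) in Solar siliques, a difference of -0.90 ± 0.13. Its seed values were 13 to 37 (median 26) in Lumen and 25 to 57 (median 37.5) in Solar, a difference of -0.65 ± 0.10. The hybrids overlapped for both genes in both tissues.

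On C05 a pair of genes with consecutive identifiers was high in Lumen inside stretch 3, which was otherwise higher in Solar. BnaC05g47890D had 0 to 261 in Lumen siliques, above 0 in 27 of 28, and 0 to 25 (median 0) in Solar siliques, and 53 to 197 (median 128.5) against 0 to 46 (median 0) in seeds. BnaC05g47880D had 0 to 64 (median 38) in Lumen siliques and 0 to 9 (median 0) in Solar siliques, and 15 to 52 (median 34) against 0 to 12 (median 0.5) in seeds. Solar libraries were at 0 for BnaC05g47890D in 17 of 28 siliques and 16 of 28 seeds and for BnaC05g47880D in 15 and 14, so no fold is given for either. One Lumen silique library, Heat 7 DAF season 2 replicate 3, was at 0 for both. Solar libraries fell into those at 0 and those with a low level, and the tissues matched in most pairs. Of 28 Solar pairs, BnaC05g47890D was at 0 in both tissues in 14 and above 0 in both in 9, and BnaC05g47880D in 12 and 11.

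The C05 genes highest in Solar were listed at or near 0 in Lumen. BnaC05g46950D was at 0 in all 28 Lumen silique libraries and had 20 to 84 (median 48.5) in Solar siliques. In seeds 25 of 28 Lumen libraries were at 0 and the highest reached 8, where Solar had 30 to 84 (median 54). BnaC05g46990D was at 0 in all 28 Lumen silique libraries and had 26 to 97 (median 64.5) in Solar siliques, and in seeds 27 of 28 Lumen libraries were at 0 and the highest reached 1, where Solar had 9 to 45 (median 20). No fold is given against values of 0, since the reads behind them are not known. Both genes lie in C05 stretch 3. In all, the 28 Lumen libraries were at 0 for 8 of 813 C05 members in siliques and 3 of 818 in seeds, beside 0.155% and 0.105% of all genes tested. The 28 Solar libraries were at 0 for 0 and 2 C05 members, beside 0.181% and 0.157% of all genes. On A05 the Lumen libraries were at 0 for 0 members in siliques and 1 in seeds, and the Solar libraries for 1 and 0. A mean under 1 in Lumen with at least 5 in Solar was found for 7 C05 members in siliques and 12 in seeds, beside 0.323% and 0.354% of all genes.

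The ranking drew on 130 A05 and 117 C05 members with the minimum mean. On A05 36 of them were higher in Lumen, against 6 in Solar, in all 8 combinations in both tissues, and on C05 5 were higher in Lumen, against 50 in Solar. Of all 6861 genes with that mean, 9.39% were higher in Lumen in all combinations, against 11.7% in Solar. BnaC05g51140D, a transcription factor that the study singles out in its co-expression network, was a member of C05 stretch 5. It had 4 to 7 (median 5) in Lumen siliques and 4 to 8 (median 6) in Solar siliques, and 3 to 9 (median 5) against 4 to 11 (median 6) in seeds, so the hybrids overlapped over nearly the whole range. The differences were -0.21 ± 0.05 (SE) in siliques and -0.20 ± 0.05 in seeds.

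Functional terms were at hand for 62 members, 34 on A05 and 28 on C05, which the study had placed in co-expression groups. It made these groups from the seed libraries of 7 DAF only. Those libraries are part of the ones compared here, so the groups are not independent of the hybrid difference. Of the 34 on A05, siliques had 20 higher in Lumen, against 7 in Solar, and seeds had 20, against 8. Of the 28 on C05, siliques had 2 higher in Lumen, against 22 in Solar, and seeds had 1, against 23, where all genes tested gave 17.9% and 18.9% in siliques and 16.9% and 20% in seeds. The directions went with the group. On A05 the 25 members of the group named lightskyblue2 had 20 higher in Lumen, against 0 in Solar, in each tissue, and the 8 members of lightblue3 had 0 higher in Lumen, against 6 in Solar in siliques and 7 in seeds. On C05 the 23 members of lightblue3 had 0 higher in Lumen, against 20 in Solar in siliques and 21 in seeds. The following genes among them were chosen after their values were seen, to show what kinds of function are covered.

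Genes of protein folding appeared on both chromosomes. BnaA05g27270D, annotated with the chaperonin-containing T-complex that folds newly made proteins, had 22.1 ± 4.76 in Lumen and 14.7 ± 3.21 in Solar siliques (SD, n = 28 each), and 41.0 ± 6.31 and 24.4 ± 3.13 in seeds. BnaC05g41030D, annotated with heat shock protein binding, had 9.11 ± 2.27 in Lumen and 23.6 ± 8.86 in Solar siliques, and 16.96 ± 4.07 and 39.1 ± 12.6 in seeds. BnaC05g43180D, annotated with the response to endoplasmic reticulum stress, ran against its chromosome, with 39.3 ± 10.2 in Lumen and 20.1 ± 3.30 in Solar siliques and 73.1 ± 16.9 and 37.3 ± 4.51 in seeds. It lies in C05 stretch 2, the stretch near 0.

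Other annotated members have metabolic or RNA-related terms. BnaC05g46930D, annotated with cysteine synthase activity, the last step of cysteine synthesis, had 1.39 ± 0.685 in Lumen and 25.2 ± 2.94 in Solar siliques (SD, n = 28 each), and 3.14 ± 1.63 and 64.3 ± 23.3 in seeds. It lies close to BnaC05g46950D and BnaC05g46990D in the identifier order. BnaC05g47450D, annotated with NAD and NADP binding, had 44.1 ± 16.2 in Lumen and 94.1 ± 29.9 in Solar siliques. BnaA05g25510D, annotated with RNA helicase activity, the unwinding of RNA, had 71.4 ± 17.5 in Lumen and 42.5 ± 10.3 in Solar siliques, and 92.6 ± 17.1 and 49.4 ± 7.67 in seeds. BnaA05g33360D, annotated with an intramolecular oxidoreductase activity, was higher in Solar, with 29.1 ± 7.15 in Lumen and 43.9 ± 8.26 in Solar siliques.

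Heat, time and season did not choose the members, so they were tested, with limma and Benjamini-Hochberg adjustment over all genes of a tissue and a q-value under 0.01 as the threshold. The fits took the libraries as independent. They did not model the main plots of season 1 or the sampling of plots at both times. In siliques heat changed 42 A05 members (5.14%), of which 33 were raised and 9 lowered, and 29 C05 members (3.57%), of which 11 were raised and 18 lowered. Over all genes tested 5.09% changed with heat, 2.19% raised and 2.9% lowered. In seeds heat changed 23 A05 members (2.81%), 19 of them raised, and 7 C05 members (0.856%), 4 of them raised, beside 1.64% of all genes changed and 0.999% raised. Among the 1482 members tested in both tissues, 64 changed in siliques and 28 in seeds, and the 5 that changed in both had the same sign. This overlap was not computed over all genes, so nothing is read from it. Leaving out a replicate number in every condition gave 24 to 46 heat members in siliques in place of 71, and 4 to 22 in seeds in place of 30.

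**Figure D5:**
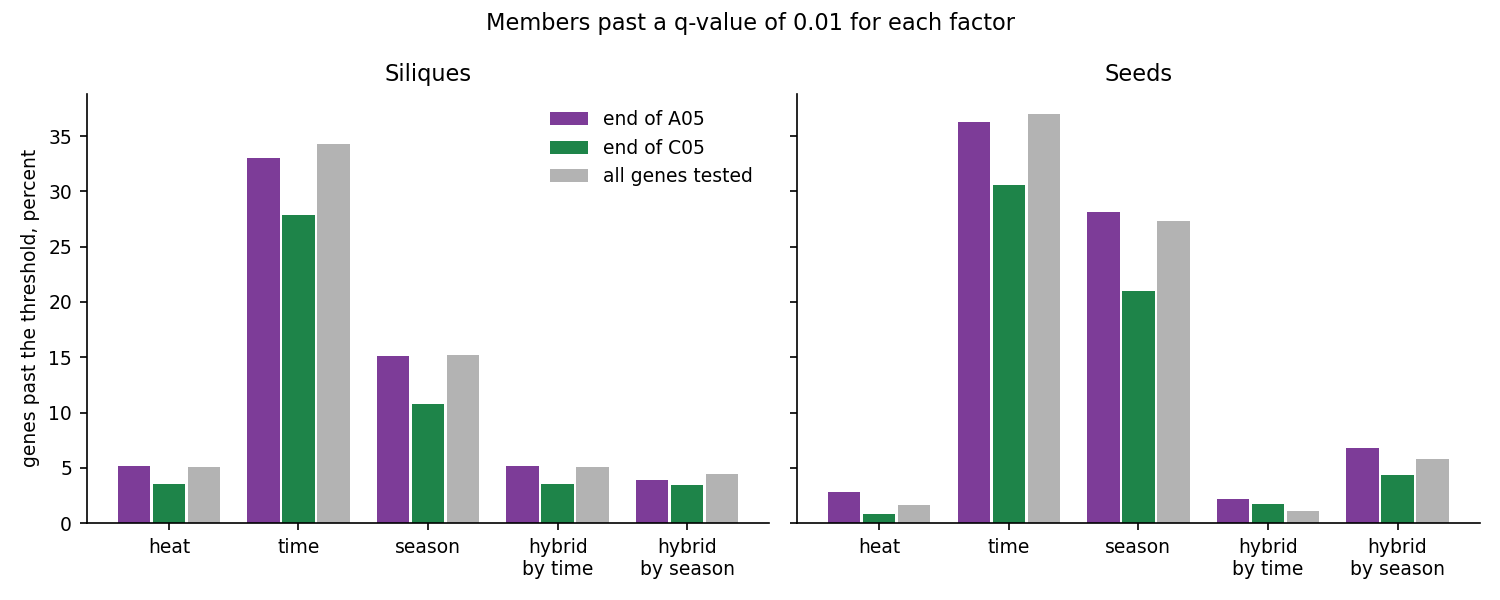
Bars give the percent of tested genes past a q-value of 0.01 in limma for heat, time, season and the change of the hybrid difference with time and with season, for the end of A05 (purple), the end of C05 (green) and all genes tested (grey). For heat the bars stand at 5.14% and 3.57% beside 5.09% in siliques and at 2.81% and 0.856% beside 1.64% in seeds, and the C05 end is the lower of the 2 ends for each factor.

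BnaA05g27170D changed with heat in both tissues and BnaC05g43560D in siliques. BnaA05g27170D had 9 to 186 (median 58) in Heat siliques and 4 to 139 (median 33.5) in Control siliques, a rise of 0.65 ± 0.15 (SE) on the log2 scale with an adjusted p of 0.0033 in limma. In seeds it had 12 to 274 (median 43.5) under Heat and 10 to 88 (median 28) under Control, a rise of 0.62 ± 0.08 (adjusted p = 2.19e-06). BnaC05g43560D fell to 22 to 71 (median 36) in Heat siliques, against 31 to 89 (median 54) in Control siliques, by 0.55 ± 0.09 (adjusted p = 5.4e-05). In seeds its coefficient was 0.02 ± 0.17 (adjusted p = 0.974). Heat and Control libraries overlapped for both genes, and the ranges pool times, seasons and hybrids. Leaving out a replicate number ended the silique call of BnaA05g27170D in 2 of 4 fits, with coefficients from 0.53 to 0.75.

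In seeds BnaC05g43050D had 16 to 510 (median 109) under Heat and 5 to 364 (median 62) under Control, a rise of 0.80 ± 0.18 (SE, limma adjusted p = 0.00474). BnaC05g47350D had 1 to 60 (median 14.5) under Heat and 2 to 75 (median 23) under Control, and fell by 0.80 ± 0.18 (limma adjusted p = 0.0051). Both rested on the full set of libraries. The call of BnaC05g43050D was lost in each of the 4 fits that left out a replicate number, with coefficients from 0.56 to 0.97, and that of BnaC05g47350D in 3 of these fits, with coefficients from -0.99 to -0.64.

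Time since flowering changed more members than any other factor tested. In siliques 270 A05 members (33%) and 227 C05 members (27.9%) differed between 14 and 7 DAF, beside 34.3% of all genes, and in seeds 297 (36.3%) and 250 (30.6%), beside 37%. BnaA05g27730D had 4 to 119 (median 60) at 14 DAF and 0 to 32 (median 3) at 7 DAF in siliques, a rise of 3.91 ± 0.36 (SE, limma adjusted p = 6.36e-12). BnaA05g29430D had 3 to 283 (median 74) at 14 DAF and 30 to 676 (median 257.5) at 7 DAF in siliques, and fell by 1.90 ± 0.33 (limma adjusted p = 7.68e-06). Its level in seeds was far higher at both times, 934 to 3323 at 14 DAF and 1475 to 4192 at 7 DAF.

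In seeds BnaA05g26320D was seen almost only at the later sampling. It had 0 to 178 (median 31.5) at 14 DAF and was at 0 in 27 of 28 libraries at 7 DAF, a coefficient of 5.53 (limma adjusted p = 2.41e-21), and in siliques it reached 2 at most. The size of this coefficient depends on the pseudocount and is no fold. BnaA05g34760D had 1 to 139 (median 21.5) at 14 DAF and 17 to 168 (median 73.5) at 7 DAF in seeds, and fell by 1.74 ± 0.26 (limma adjusted p = 2.59e-07).

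Season changed 123 A05 members (15.1%) and 88 C05 members (10.8%) in siliques, beside 15.2% of all genes, and 230 (28.1%) and 172 (21%) in seeds, beside 27.3%. On A05 86 silique members were lower and 37 higher in season 2 than in season 1. On C05 the directions were even, with 44 lower and 44 higher, and over all genes 7.92% were lower and 7.32% higher. In seeds 154 A05 members were lower and 76 higher in season 2, and 88 and 84 C05 members, where all genes gave 15.1% and 12.2%. Season members numbered 83 to 178 in siliques in place of 211 when a replicate number was left out, and 195 to 461 in seeds in place of 402. Seasons also differ in the number of libraries per condition.

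The hybrid difference itself was tested for change with season, time and heat, which the choice of the ranges did not use directly. With season it changed for 32 A05 and 28 C05 members in siliques, 3.92% and 3.44% beside 4.45% of all genes, and for 56 and 36 in seeds, 6.84% and 4.4% beside 5.82%. With time it changed for 42 and 29 members in siliques, 5.14% and 3.57% beside 5.07%, and for 18 and 14 in seeds, 2.2% and 1.71% beside 1.11%. For season, fits without a replicate number gave 8 to 47 members in siliques in place of 60 and 12 to 99 in seeds in place of 92, each lowest without replicate 2. For time they gave 24 to 51 in place of 71 and 5 to 21 in place of 32. With heat it changed for 0 members in limma at a q-value under 0.01, as for 0 genes in the whole table. At an unadjusted p under 0.05 these were 64 A05 and 55 C05 members in siliques, beside 6.81% of all genes, and 39 and 45 in seeds, beside 3.5%. By the dates in the paper, the hybrids were sampled further apart in season 1 than in season 2. A change of the hybrid difference with season cannot be told apart from this gap in dates.

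Most stretches kept their difference in both seasons. In A05 stretch 1 the median difference in siliques was 0.59 in season 2 and 0.59 in season 1, and in C05 stretch 1 it was -0.96 and -0.90. C05 stretch 4 was the exception, with 1.04 in season 2 and 0.26 in season 1 in siliques and 0.72 and 0.30 in seeds. Only 2 of its 47 members in siliques and 0 of 47 in seeds passed the threshold for a change of the hybrid difference with season, and both of those 2 had negative coefficients, while the median coefficients over its members were 0.65 and 0.60. The highest member of this stretch, BnaC05g48870D, chosen after its values were seen, had 370 to 1066 (median 669.5) in Lumen siliques and 264 to 709 (median 498) in Solar siliques and 4 at most in seeds. Its silique difference was 0.45 in season 2 and 0.45 in season 1, so it did not follow the season pattern of its stretch. With time its silique difference changed by 0.68 ± 0.16 (SE, limma adjusted p = 0.00288).

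Single members with a season-dependent hybrid difference lay in several stretches. BnaA05g27330D had 41 to 127 (median 70) in Lumen and 11 to 67 (median 27) in Solar siliques in season 2, whereas in season 1 it had 18 to 71 (median 35.5) in Lumen and 23 to 71 (median 35.5) in Solar. The difference changed by 1.45 ± 0.27 (SE, limma adjusted p = 0.000354). BnaC05g47350D had 0 to 41 (median 11) in Lumen and 4 to 69 (median 49) in Solar siliques in season 2, and 5 to 44 (median 15) in Lumen and 7 to 27 (median 19.5) in Solar in season 1, a change of -1.76 ± 0.44 (limma adjusted p = 0.00646). In both genes the medians of the hybrids lay close together in season 1 and apart in season 2, where the ranges still overlapped. The call of BnaC05g47350D was lost in each of the 4 fits that left out a replicate number, and that of BnaA05g27330D in 1.

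In seeds BnaC05g43050D had 24 to 510 (median 112.5) in Lumen and 5 to 231 (median 41.5) in Solar in season 2, and 11 to 240 (median 67.5) in Lumen and 9 to 317 (median 141.5) in Solar in season 1, a change of 1.83 ± 0.35 (SE, limma adjusted p = 0.00035). BnaC05g45560D had 5 to 215 (median 64) in Lumen and 41 to 930 (median 215) in Solar seeds in season 2, and 11 to 260 (median 93.5) in Lumen and 24 to 154 (median 55.5) in Solar in season 1, a change of -2.57 ± 0.53 (limma adjusted p = 0.000846). The order of the hybrids' medians thus turned round between the seasons in both genes. Both lie in C05 stretch 2. Leaving out a replicate number ended the call of BnaC05g43050D in 1 of 4 fits and that of BnaC05g45560D in 2.

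For time, BnaA05g29390D had the largest change of the hybrid difference in siliques. It had 90 to 491 (median 226) in Lumen and 56 to 282 (median 138.5) in Solar at 14 DAF, and 51 to 547 (median 209) in Lumen and 169 to 685 (median 296.5) in Solar at 7 DAF, a change of 1.42 ± 0.28 (SE, limma adjusted p = 0.000534). In seeds BnaC05g46750D had 2 to 126 (median 21.5) in Lumen and 13 to 87 (median 58) in Solar at 14 DAF, and 1 to 36 (median 13.5) in Lumen and 37 to 174 (median 73) in Solar at 7 DAF, a change of 1.77 ± 0.38 (limma adjusted p = 0.00496). Without the 2 seed libraries that stood apart and the Lumen Control seed library of 7 DAF, season 2, replicate 4, this change was 1.58 with an adjusted p of 0.0105. Leaving out a replicate number ended the call of BnaA05g29390D in 2 of 4 fits, with changes from 1.12 to 1.603, and that of BnaC05g46750D in 3, with changes from 1.62 to 1.90.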

How the data were processed

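RNA was measured in 112 libraries, 56 of siliques and 56 of seeds. The authors quantified reads against the annotated transcripts with kallisto 0.46 and fitted their model in sleuth. The deposited values are whole numbers per gene, used here as a score whose scaling is not stated, so counting errors and depth in reads are unknown and the spread between libraries served as the error.

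Values were transformed to log2(value + 0.5). In each tissue limma 3.58.1 in R 4.3.3, with a trend in the prior variance, fitted the 4 factors (hybrid, treatment, time, season) and their interactions, after a filter of at least 1 in at least 47% of libraries. Benjamini-Hochberg q-values under 0.01 over all genes tested in the tissue counted as calls. Tables were read with the R package data.table (version 1.17.8), and plots were drawn with matplotlib 3.10.9. The code was tested on simulated data.

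The members and lists were chosen with earlier results of these data known. Named genes are, on each chromosome, the 2 highest in Lumen and the 2 highest in Solar by the smaller difference of both tissues, with the mean of at least 20 and same sign described above. For heat, time and the season and time dependence they are the members with the largest coefficients past the threshold and a mean of at least 20, and the hub BnaC05g51140D was added. The alternatives tried were no filter, a minimum of 5, a pseudocount of 5, median-ratio rescaling, a replicate block, each replicate number left out and 2 outlying seed libraries left out; leaving out 3 seed libraries, and the stretches and their scores, were added after the data had been seen. Identifiers were not matched to names or sequences.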

Additional observations from a re-analysis of the deposited data

Results flagged for a closer look

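Libraries far from the other 3 of their condition were looked for among season 2 libraries, in 261 checks of 4 libraries each. The checks covered the stretch scores and named genes with a group mean of at least 5, and 22 of them flagged a library. For independent, normally distributed values chance gives about 1 in 20. The checks reuse the same libraries and related stretches and genes, so their count cannot be set against this rate. In the Lumen Control 7 DAF plots, replicate 4 had a C05 stretch 1 score of -1.70 in siliques, with the others at -0.98 to -0.86, and a C05 stretch 2 score of -0.81 in seeds, with the others at -0.19 to -0.06. In Lumen Heat 7 DAF siliques, replicate 2 had an A05 stretch 4 score of -0.17 and replicate 3 a BnaC05g47880D log2 value of -1, which is a value of 0. In Lumen Heat 7 DAF seeds, replicate 4, the library with many genes at 0, had a C05 stretch 5 score of -0.78. In Lumen Control 14 DAF seeds, replicate 3 had a C05 stretch 2 score of -0.11, with the others at 0.20 to 0.27, and replicate 4 a C05 stretch 5 score of -0.065. In Lumen Heat 14 DAF seeds, replicate 4 had a C05 stretch 5 score of -0.15.

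Solar libraries deviated by smaller amounts in most scores. In siliques the A05 stretch 3 score was -0.31 in Control 14 DAF replicate 1, with the others at 0.09 to 0.13, the A05 stretch 1 score 0.0038 in Control 14 DAF replicate 2, the C05 stretch 2 score -0.037 in Heat 7 DAF replicate 1, the C05 stretch 1 score 0.026 in Heat 14 DAF replicate 4 and the C05 stretch 5 score -0.040 in Heat 14 DAF replicate 2. In seeds the C05 stretch 2 score was 0.17 in Control 14 DAF replicate 1, with the others at -0.07 to -0.04, and the A05 stretch 5 score was -0.11 in Heat 14 DAF replicate 4.

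Among log2 values of single genes, BnaA05g31280D had 4.13 in Lumen Control 7 DAF siliques, replicate 3, with the others at 2.46. BnaA05g33020D had 5.02 in siliques and 5.82 in seeds of Lumen Heat 14 DAF replicate 3, below the others in both tissues. BnaA05g31170D had 4.55 in Solar Control 7 DAF siliques, replicate 2, and BnaC05g46950D had 6.31 in Solar Control 14 DAF siliques, replicate 1. BnaC05g46990D had 5.57 in Solar Heat 7 DAF siliques, replicate 1. BnaC05g47890D had -1, a value of 0, in Solar Control 7 DAF seeds, replicate 3, with the others at 4.13 to 4.67.

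The hybrid difference changed with season or time past the limma threshold for 8 members ranked by it or picked for its change. With season it changed by 1.45 for BnaA05g27330D and by -1.76 for BnaC05g47350D in siliques, and by 1.83 for BnaC05g43050D and by -2.57 for BnaC05g45560D in seeds. BnaC05g46950D changed by -0.54 in siliques and BnaC05g46990D by 0.89 in seeds, where Lumen was at or near 0 throughout, so the level in Solar carried these changes. With time it changed by 1.42 for BnaA05g29390D in siliques and by 1.77 for BnaC05g46750D in seeds.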

How the results depend on the processing

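Of the counts of calls, the medians over the chromosome ends and the named genes, which were the values recomputed, none changed direction. Stretch medians were not recomputed, and library scores only without 3 seed libraries. Of the 25 correlations between an A05 and a C05 stretch, leaving out the 2 farthest libraries changed the sign of 5 in Lumen siliques, 7 in Lumen seeds, 3 in Solar siliques and 4 in Solar seeds. No filter on low values, median-ratio rescaling, which moved the libraries by factors of 1.01 to 1.02 and so tests little, and leaving out outlying seed libraries kept every count within 1.5 times. A pseudocount of 5 brought the median hybrid difference to 0.084 on A05 and -0.127 on C05 in siliques and to -0.157 on C05 in seeds, and the members whose hybrid difference changed with time in seeds to 52. A minimum of 5, which tests fewer genes, gave 194 A05 members higher in Lumen, 45 C05 members higher in Lumen and 217 in Solar in siliques, 33 and 252 in seeds, and 358 members changed with time in seeds.

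Leaving out a replicate number in every condition drops up to 16 of 56 libraries. In siliques it gave 63 to 94 A05 members higher in Solar, 45 to 83 C05 members higher in Lumen, 24 to 46 for heat, 83 to 178 for season, and, for the change of the hybrid difference, 24 to 51 with time and 8 to 47 with season. In seeds it gave 69 to 105 A05 members higher in Solar, 4 to 22 for heat, 195 to 461 for season, 5 to 21 for the change with time and 12 to 99 for the change with season. Calls of single named genes were lost 26 times over these fits, counted for each named result in each fit.

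Within a tissue, same-numbered libraries of different conditions had a median correlation of deviations of 0.016 in siliques and 0.003 in seeds. Single pairs ran from -0.30 to 0.23 in siliques and from -0.25 to 0.37 in seeds. In siliques 22 of 56 libraries were closest to those of their own number, and in seeds 17. The median covers all 196 such pairs of a tissue, most of which could not share a plot, so it cannot show whether plots were paired. Seed and silique libraries of the same condition and number, whose scores recurred in several stretches, were not part of this check. With the replicate number as a block, 67 members changed with heat in siliques in place of 71, all other counts stayed within 1.5 times and no named gene lost its call.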
